A study of Arabidopsis thaliana with 21 samples.

Results

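GLABRA2 (GL2, AT1G79840) encodes a class IV homeodomain leucine zipper transcription factor of the Arabidopsis epidermis, and it was also one of the few genes with a dense run of ChIP-seq peaks. The peaks called on chromosome 1 between 30037506 and 30041097, inside the GL2 gene, were collected from the 6 deposited peak lists, taking every peak that overlapped this window by 1 bp or more. This gave 44 of the 10301 peaks of the series. They comprised 7 peaks for gl2_dZip, 10 for gl2_dSTART, 8 for gl2_E375G R392M, 5 for gl2_Amo, 8 for wild-type GL2 and 6 for gl2-5. The window runs from the outermost base of the outermost peaks, and widening it to the annotated gene span and 1 kb on each side added 0 peaks in any list.

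The study asked where wild-type GL2 and altered forms of it are found in the genome of 10 day old seedlings of the Columbia (Col) ecotype. Chromatin was precipitated with an anti-GFP antibody, which also recognises the EYFP (enhanced yellow fluorescent protein) fused to each form. The 5 fusions were EYFP:gl2_dZip, EYFP:gl2_dSTART, EYFP:gl2_E375G R392M, EYFP:gl2_Amo and EYFP:GL2 wild type, and each was a transgene carried by plants homozygous for gl2-5. The control was the gl2-5 null mutant with no transgene. All 6 genotypes therefore kept the resident gl2-5 copy of the gene, and the fusion lines carried GL2 sequence from the transgene as well. Tags from the resident gene and from a transgene cannot be told apart in these lists. Per the labels, the transgenes were brought in by floral dip and only the wild-type fusion rescued the mutant. The promoter of the transgenes and the number of independent lines are not given in the sources used here. The name Amo is not explained in the labels and was given no meaning.

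GL2 promotes the outgrowth and branching of trichomes in the shoot, keeps non-hair cells of the root from forming hairs, and is needed for mucilage in the seed coat. In the protein, the homeodomain binds DNA, the adjoining zipper lets HD-Zip proteins pair, and the START domain is related to lipid-binding modules. The transcription of GL2 is known to be switched on by complexes of MYB factors (GL1, WER or MYB23), the basic helix-loop-helix factors GL3 and EGL3 and the WD40 protein TTG1, and restrained by the small MYB proteins CPC and TRY.

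Each genotype was represented by 1 list, called on 2 or 3 merged ChIP libraries against 1 input library. The values are therefore single measurements with no replicate error, and differences between genotypes could not be set against the spread of replicates. The caller kept 1 tag per position, which left 1248287 tags for gl2_dZip, 297665 for gl2_dSTART, 372864 for gl2_E375G R392M, 538666 for gl2_Amo, 352707 for GL2 and 227071 for gl2-5. This filter removed 95.3% to 99.2% of the ChIP tags. The intervals given with tag counts are 95% exact Poisson or binomial intervals and cover counting error only. A base outside the listed peaks did not pass the threshold of the caller at this depth, and was not shown to be free of tags.

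Runs of peaks of this density were rare. Among 27444 protein-coding genes, the share with 5 or more peaks was 0.00729% for gl2_dZip, 0.0109% for gl2_dSTART, 0.00729% for gl2_E375G R392M, 0.0182% for gl2_Amo, 0.00729% for GL2 and 0.00729% for gl2-5. In the lists of gl2_dZip, gl2_E375G R392M, GL2 and gl2-5 these were 2 genes, GL2 and PDF2. The gl2_dSTART list added AT4G05612, and the gl2_Amo list added AT4G05612, MEE38 and AT1G39070. A gene with at least 1 peak was more common, at 0.692% for gl2_dZip, 2.73% for gl2_dSTART, 1.64% for gl2_E375G R392M, 3.72% for gl2_Amo, 1.30% for GL2 and 1.25% for gl2-5. Outside the gene, the nearest peak on either side was between 13850 bp away, in the gl2_E375G R392M list, and 664645 bp away, in the gl2-5 list. The run of peaks thus stood alone in every list.

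The 44 peaks merged into 7 stretches, numbered here in the order of the coordinates, with 6 gaps that held no peak of any list. The strand of the gene and its exons were not used here, so no stretch is named by an exon or a protein domain. The 6 gaps were 71, 560, 59, 71, 41 and 45 bp long, and the longest, at 30038050 to 30038609, separated stretches 2 and 3 in every list that had a peak in both. Over the 3592 bp of the window, 1286 bp (35.8%) were covered in all 6 lists, 847 bp (23.6%) in none and 351 bp (9.77%) in only 1 list. The bases common to all lists fell into 8 runs within stretches 2, 4, 5, 6 and 7. The longest of these was 389 bp, at 30039631 to 30040019 in stretch 5.

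**Figure D1:**
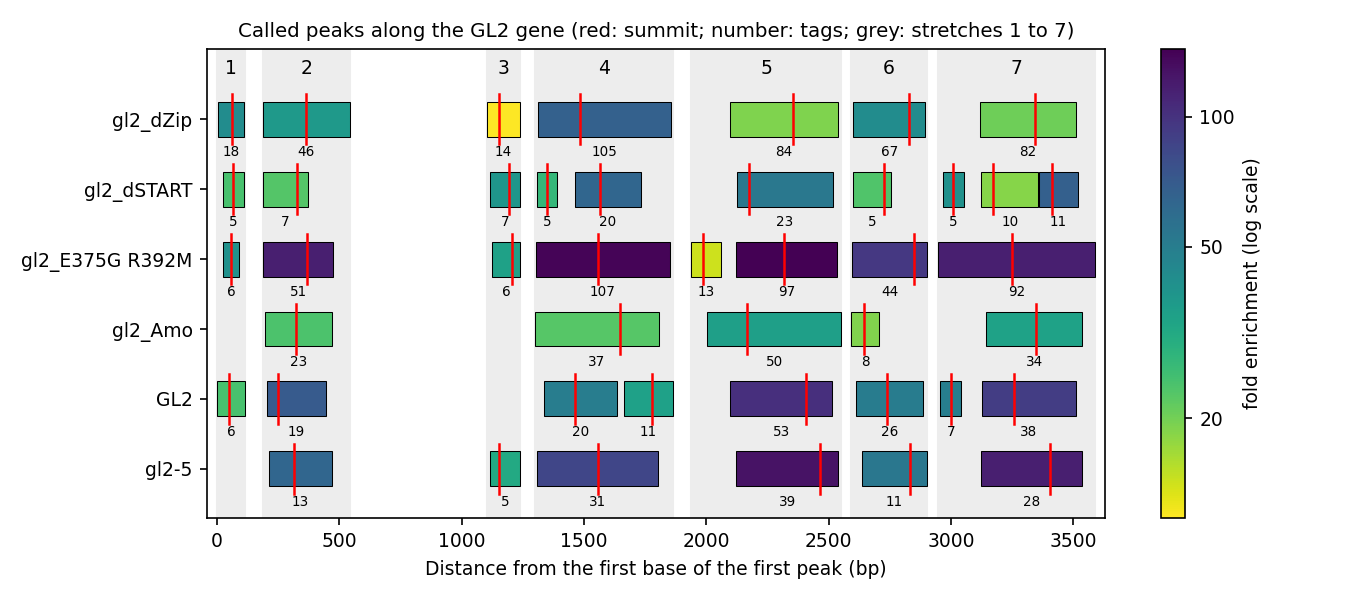
Peaks of the 6 lists along the GL2 gene, by distance in bp from the first base of the first peak (bars from peak start to end, coloured by fold enrichment on a log scale, red lines for summits, tag counts below the bars). The 7 grey stretches are the union of all peaks. Stretch 1 lacks a gl2_Amo and a gl2-5 peak, stretch 3 lacks a gl2_Amo and a GL2 peak, and the gap of 560 bp between stretches 2 and 3 is free of peaks in all 6 lists.

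**Figure D2:**
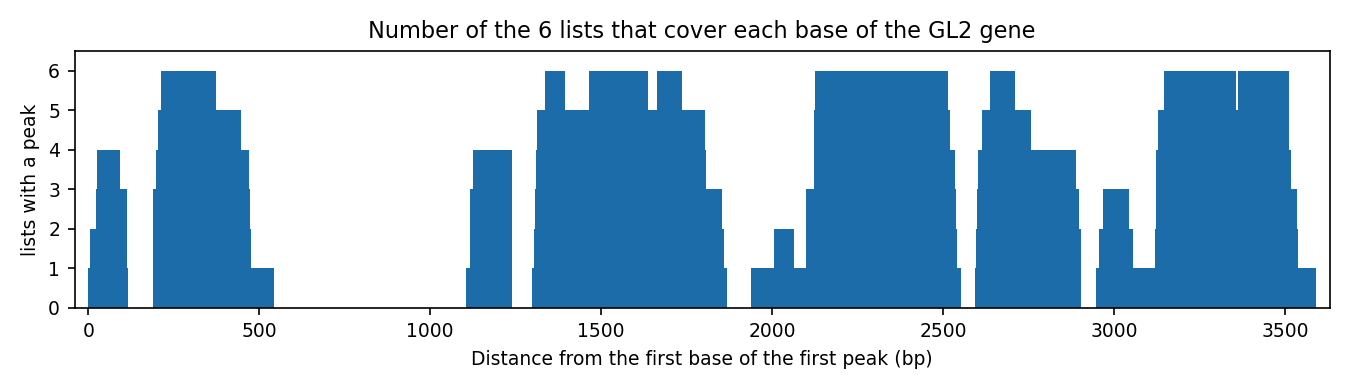
Number of lists, from 0 to 6, with a peak at each base of the GL2 gene, by distance in bp from the first base of the first peak. Stretches 1 and 3 reach 4 lists, and the other 5 stretches reach all 6.

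Stretch 1 (30037506 to 30037622) was a site with few tags that was listed for 4 of the 6 genotypes. Its peak reached from 30037510 to 30037618 with 18 tags for gl2_dZip, from 30037529 to 30037617 with 5 tags for gl2_dSTART, from 30037531 to 30037597 with 6 tags for gl2_E375G R392M and from 30037506 to 30037622 with 6 tags for GL2. The gl2_Amo and gl2-5 lists had no peak there. The fold enrichment, which is the caller's ratio of tags to the local background, was 42.8 for gl2_dZip, 24.3 for gl2_dSTART, 41.0 for gl2_E375G R392M and 24.3 for GL2. The 4 summits lay within 16 bp of each other, the smallest range of any stretch. The peaks there were only 67 to 117 bp long, which left the summits little room to differ.

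Stretch 2 (30037694 to 30038049) carried 1 peak in every list. The peak started within a range of 25 bp in the 6 lists, but its end ranged over 172 bp. It ended at 30038049 for gl2_dZip, at 30037877 for gl2_dSTART, at 30037982 for gl2_E375G R392M, at 30037978 for gl2_Amo, at 30037951 for GL2 and at 30037975 for gl2-5. The gl2_dSTART peak was the shortest and the gl2_dZip peak the longest. The peaks held 46 tags for gl2_dZip, 7 for gl2_dSTART, 51 for gl2_E375G R392M, 23 for gl2_Amo, 19 for GL2 and 13 for gl2-5. Their folds were 37.4, 23.0, 116, 24.0, 70.9 and 63.7 in that order, so the START deletion had the lowest value and the missense form the highest.

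Stretch 3 (30038610 to 30038745) followed the long gap and again had peaks in 4 lists. The altered forms with a peak were gl2_dZip, with 14 tags and a fold of 11.8, gl2_dSTART, with 7 tags and a fold of 38.5, and gl2_E375G R392M, with 6 tags and a fold of 34.2. Wild-type GL2 had no peak there, while gl2-5 had a peak with 5 tags and a fold of 31.9. The last base of the peak was the same to within 2 bp in these lists, between 30038743 and 30038745. The gl2-5 peak had a deposited false discovery rate (FDR, obtained by the caller with ChIP and input exchanged) of 13.21%, and the missing GL2 call does not show that tags were absent there.

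Stretch 4 (30038805 to 30039372) was covered by 2 peaks for gl2_dSTART and for GL2, but by 1 peak in the other lists. The undivided peak held 105 tags for gl2_dZip, 107 for gl2_E375G R392M, 37 for gl2_Amo and 31 for gl2-5. The gl2_dSTART list had peaks at 30038813 to 30038898, with 5 tags, and at 30038969 to 30039240, with 20 tags. In the GL2 list the pair lay at 30038842 to 30039142, with 20 tags, and at 30039169 to 30039372, with 11 tags. The split therefore fell at different places, with a gap of 70 bp in the START deletion list and of 26 bp in the wild-type list. The highest fold in the stretch was 66.8 for gl2_dZip, 63.2 for gl2_dSTART, 139.5 for gl2_E375G R392M, 22.9 for gl2_Amo, 50.1 for GL2 and 84.9 for gl2-5.

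Stretch 5 (30039444 to 30040057) held the highest fold of the gene in the lists of gl2_E375G R392M (143), gl2_Amo (35.2), GL2 (102) and gl2-5 (127). In the deletion lists it was 19.0 for gl2_dZip and 52.6 for gl2_dSTART, below the highest value of each list in the gene. The main peak had 84 tags for gl2_dZip, 23 for gl2_dSTART, 97 for gl2_E375G R392M, 50 for gl2_Amo, 53 for GL2 and 39 for gl2-5. Its last base ranged over 38 bp, from 30040019 to 30040057, and its summits were scattered, from 30039672 (gl2_Amo) to 30039973 (gl2-5). The gl2_E375G R392M list had a further small peak at 30039444 to 30039568, with 13 tags and a fold of 14.2, of which 67 bp were covered in no other list.

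Stretch 6 (30040099 to 30040408) separated the lists by the length of the peak. It was short for gl2_dSTART, at 157 bp with 5 tags, and for gl2_Amo, at 116 bp with 8 tags. The peak measured 296 bp with 67 tags for gl2_dZip, 307 bp with 44 tags for gl2_E375G R392M, 276 bp with 26 tags for GL2 and 266 bp with 11 tags for gl2-5. In the 4 long peaks the last base fell between 30040394 and 30040408. Folds were 42.7 for gl2_dZip, 23.4 for gl2_dSTART, 95.6 for gl2_E375G R392M, 18.9 for gl2_Amo, 50.5 for GL2 and 53.1 for gl2-5.

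Stretch 7 (30040454 to 30041097) was the longest, at 644 bp, and was filled end to end by a single gl2_E375G R392M peak with 92 tags and a fold of 116. The gl2_dZip list had 1 peak with 82 tags and the gl2_Amo list 1 peak with 34 tags, whereas for gl2_dSTART the stretch was broken into 3 peaks with 5, 10 and 11 tags. The GL2 list had 2 peaks with 7 and 38 tags, and the gl2-5 list 1 peak with 28 tags. The low-coordinate part of the stretch, around 30040463 to 30040548 where GL2 had its small peak, was covered for gl2_dSTART, gl2_E375G R392M and GL2. It was not covered for gl2_dZip, gl2_Amo and gl2-5. The highest fold was 20.4 for gl2_dZip, 67.2 for gl2_dSTART, 116 for gl2_E375G R392M, 33.9 for gl2_Amo, 92.1 for GL2 and 117 for gl2-5.

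The forms with a deleted domain were then compared with GL2 over the whole gene, since a transgene that lacks part of the coding sequence adds no tags from that part. All 7 stretches had a gl2_dSTART peak and a gl2_dZip peak, but this rested on weak calls. In stretches 1, 2, 3 and 6 the gl2_dSTART peaks had 5 to 7 tags and deposited scores, which are larger for smaller p-values of the caller, of 55.7 to 89.8. At a score of 100 or more, 3 gl2_dSTART peaks were left, in stretches 4, 5 and 7, and 6 gl2_dZip peaks, in all stretches but 3. Of the other lists, gl2_E375G R392M had peaks in 7 stretches, gl2_Amo in 5, GL2 in 6 and gl2-5 in 6. By length, gl2_dZip peaks covered 2273 bp, gl2_dSTART peaks 1783 bp, gl2_E375G R392M peaks 2507 bp, gl2_Amo peaks 1838 bp, GL2 peaks 2022 bp and gl2-5 peaks 1968 bp. The START deletion had the most peaks and the fewest covered bases as deposited, and its 98 tags were the fewest of any list. Its place by number of peaks did not hold, since joining peaks within 100 bp gave it 4, as for gl2_dZip, gl2_Amo and gl2-5, and a score of 100 or more left it 3, the fewest of the 6 lists.

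The gl2_dSTART list left uncovered 477 bp that GL2 peaks covered. Of these, 4 runs were at least 50 bp long. They lay at 30037878 to 30037951 (74 bp, stretch 2), 30038899 to 30038968 (70 bp, stretch 4), 30039241 to 30039372 (132 bp, stretch 4) and 30040262 to 30040394 (133 bp, stretch 6). At the last of these, gl2_Amo had no peak over any of the run either. Bases covered in the 5 other lists and not for gl2_dSTART came to 220 bp. The same count was 0 bp for both gl2_dZip and gl2_E375G R392M, 63 bp for gl2_Amo, 56 bp for GL2 and 31 bp for gl2-5. Most of the 220 bp lay in stretch 2, in a run of 74 bp, and in stretch 4, in runs of 70 bp and 70 bp. Stretch 5 added only 2 bp and stretch 7 only 4 bp. The sequence that encodes the START domain was not placed on the gene, so whether these runs lie in it was not tested. In the other direction, 238 bp were covered for gl2_dSTART and not for GL2, most of them in stretch 3.

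For gl2_dZip, only 103 bp of the GL2 peaks were left uncovered. The one run of at least 50 bp was the 86 bp of the small GL2 peak at 30040463 to 30040548, which gl2_Amo and gl2-5 also lacked. The gl2_dZip peaks covered 354 bp that GL2 peaks did not, including all of stretch 3 and 98 bp at 30037952 to 30038049, the end of stretch 2. The list had the most retained tags of the series, so the wider peaks stand beside a greater depth, and the part of depth in them was not tested. The deposited FDR was between 42.42% and 98.69% for the 7 gl2_dZip peaks, and 0 of them reached 5%. By contrast 10 of 10 gl2_dSTART peaks, 8 of 8 gl2_E375G R392M peaks, 5 of 5 gl2_Amo peaks, 7 of 8 GL2 peaks and 2 of 6 gl2-5 peaks had an FDR of 5% or less. In the whole lists that share was 0.159% for gl2_dZip, 100% for gl2_dSTART, 68.0% for gl2_E375G R392M, 99.6% for gl2_Amo, 42.8% for GL2 and 2.79% for gl2-5.

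The tags in peaks were next summed over the gene and set against the retained ChIP tags of each list. Per 100000 retained tags, the gene held 33.3 (30.2 to 36.7) for gl2_dZip, 32.9 (26.7 to 40.1) for gl2_dSTART, 112 (101 to 123) for gl2_E375G R392M, 28.2 (23.9 to 33.1) for gl2_Amo, 51.0 (43.9 to 59.1) for GL2 and 55.9 (46.6 to 66.5) for gl2-5. The missense form was therefore the highest and 3 altered forms were the lowest, with the wild-type fusion close to the null mutant that carries no fusion. The ratio of GL2 to gl2-5 was 0.912 (0.723 to 1.15), an interval that spans equality. The ratio to gl2-5 was 0.596 (0.487 to 0.733) for gl2_dZip, 0.589 (0.448 to 0.772) for gl2_dSTART, 1.99 (1.63 to 2.45) for gl2_E375G R392M and 0.505 (0.396 to 0.644) for gl2_Amo. Scaled to the ChIP tags before repeated positions were removed, the ratio for gl2_E375G R392M became 0.543, so its direction depended on which total was used. With that total the ratios were 0.294 for gl2_dZip, 0.156 for gl2_dSTART, 0.0829 for gl2_Amo and 0.351 for GL2, all below 1. Only the total was exchanged, and the tags in peaks stayed those counted after the filter. These ratios therefore also carry the share of tags that the filter kept, which was 4.66% for gl2-5 and 0.765% to 2.30% for the fusions.

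These sums depend on how much was called. Per kb of covered sequence and 100000 retained tags, the values were 14.7 for gl2_dZip, 18.5 for gl2_dSTART, 44.5 for gl2_E375G R392M, 15.4 for gl2_Amo, 25.2 for GL2 and 28.4 for gl2-5. The order of the missense form, the null mutant and the wild-type fusion above the other forms was the same. Against GL2, the ratio of tags was 0.653 (0.547 to 0.782) for gl2_dZip, 0.645 (0.499 to 0.830) for gl2_dSTART, 2.19 (1.83 to 2.62) for gl2_E375G R392M and 0.553 (0.443 to 0.690) for gl2_Amo. Set directly against the missense form, the START deletion had a ratio of 0.295 (0.234 to 0.369). Whether these ratios exceed the spread between libraries of a genotype could not be tested.

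**Figure D3:**
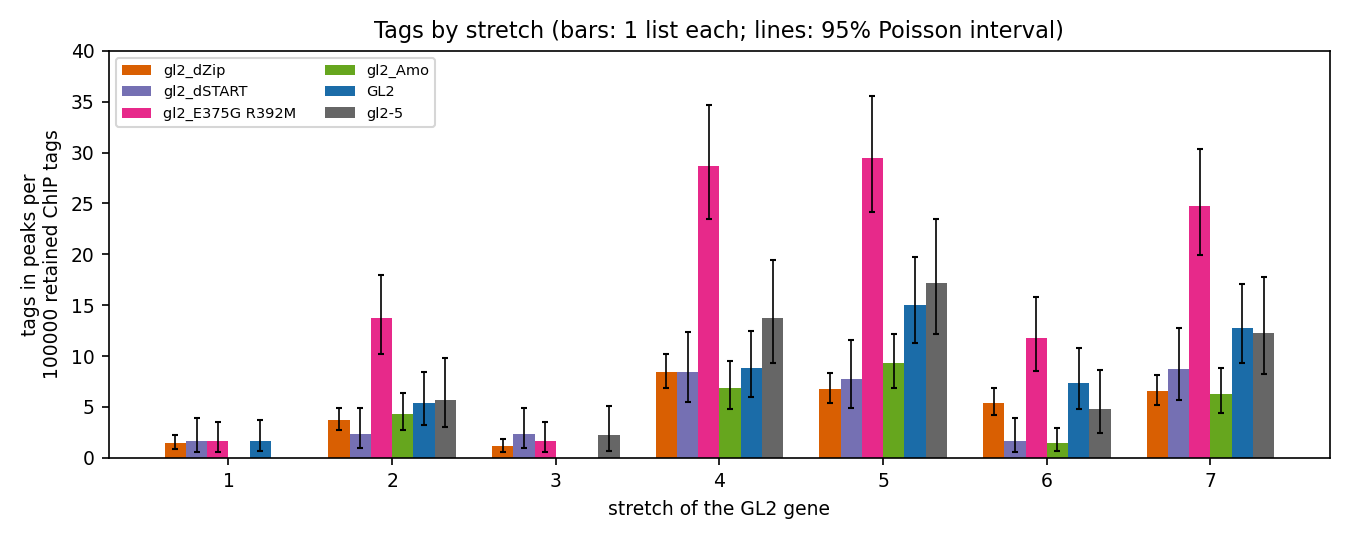
Tags in peaks per 100000 retained ChIP tags in each of the 7 stretches, with 1 bar per list and lines for the 95% Poisson interval (counting error only). The gl2_E375G R392M bars are the highest in stretches 2, 4, 5, 6 and 7, and missing bars mark stretches without a called peak.

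The ratios to GL2 were also taken stretch by stretch, on the retained total only and over peaks called separately in each list. Differences between stretches were not tested. For gl2_dSTART the ratio to GL2 lay between 0.228 (0.0683 to 0.603) in stretch 6 and 0.987 (0.238 to 3.88) in stretch 1, and was below 1 in 6 of 6 stretches that both lists covered. Its interval stayed below 1 in stretch 5, at 0.514 (0.301 to 0.854), and in stretch 6, where 157 bp were covered for gl2_dSTART and 276 bp for GL2. In stretch 4 the ratio was 0.956 (0.541 to 1.67), close to equality. Stretch 6 was also low for gl2_Amo, with a ratio of 0.201 (0.0788 to 0.458).

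For gl2_dZip the ratio to GL2 lay between 0.448 (0.314 to 0.644) in stretch 5 and 0.957 (0.636 to 1.48) in stretch 4, and was below 1 in 6 of 6 stretches. Its interval also stayed below 1 in stretch 7, at 0.515 (0.354 to 0.758), but not in stretch 6, at 0.728 (0.457 to 1.19). The filter kept 2.30% of the gl2_dZip tags and 1.79% of the GL2 tags. With the total before the filter the gl2_dZip ratios would be higher, so those near 1 need not stay below it. Within each deletion form the intervals of stretches 5 and 6 overlapped. The gl2_E375G R392M form was above GL2 in 5 of 6 stretches, by up to 3.27 (2.17 to 5.04) in stretch 4, with the exception of stretch 1 at 0.946 (0.253 to 3.54). Between GL2 and gl2-5 the ratio ran from 0.644 (0.378 to 1.10) in stretch 4 to 1.52 (0.727 to 3.41) in stretch 6, and every interval included 1.

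As shares of the gene's tags in called peaks, which need no scaling to the total but still depend on what was called, stretches 4, 5 and 7 were the fullest in all lists. They were also the longest, at 568, 614 and 644 bp, and the shares are not corrected for length. Stretch 4 held 25.2% (21.1 to 29.7) of the tags for gl2_dZip, 25.5% (17.2 to 35.3) for gl2_dSTART, 25.7% (21.6 to 30.2) for gl2_E375G R392M, 24.3% (17.8 to 32.0) for gl2_Amo, 17.2% (12.0 to 23.5) for GL2 and 24.4% (17.2 to 32.8) for gl2-5. Stretch 5 held 20.2% (16.4 to 24.4) for gl2_dZip, 23.5% (15.5 to 33.1) for gl2_dSTART, 26.4% (22.3 to 31.0) for gl2_E375G R392M, 32.9% (25.5 to 41.0) for gl2_Amo, 29.4% (22.9 to 36.7) for GL2 and 30.7% (22.8 to 39.5) for gl2-5. The profile of the null mutant lay within the range of the fusions in both stretches. Among the 5 stretches with a peak in every list, stretch 6 varied most in proportion, with 16.1% (12.7 to 20.0) for gl2_dZip, 5.10% (1.68 to 11.5) for gl2_dSTART, 10.6% (7.79 to 13.9) for gl2_E375G R392M, 5.26% (2.30 to 10.1) for gl2_Amo, 14.4% (9.66 to 20.4) for GL2 and 8.66% (4.40 to 15.0) for gl2-5.

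The footprints of the lists were then compared base by base. The gl2-5 peaks covered 85.1% of the bases covered for gl2_dZip, 86.5% for gl2_dSTART, 78.0% for gl2_E375G R392M, 88.8% for gl2_Amo and 84.2% for GL2. Conversely, 98.3% of gl2-5 bases were covered for gl2_dZip, 78.4% for gl2_dSTART, 99.4% for gl2_E375G R392M, 83.0% for gl2_Amo and 86.5% for GL2. Almost the whole footprint of the unfused control was therefore contained in the 2 lists with the most tags at the gene, 416 in each. Summits ranged over 16 bp in stretch 1, 117 bp in stretch 2, 54 bp in stretch 3, 208 bp in stretch 6, and further, over 430 bp in stretch 4, 480 bp in stretch 5 and 414 bp in stretch 7. In stretches 4, 5 and 7 some lists had more than 1 peak. The range there takes in the summits of separate peaks and is not the spread of a shared summit. For overlapping gl2_dZip and GL2 peaks, the median distance of starts was 12 bp and of ends 9 bp at the gene (7 pairs), against 16 bp and 17 bp for 165 pairs outside GL2 and PDF2. Between overlapping GL2 and gl2-5 peaks, the median distance of starts was 23.5 bp and of ends 25.5 bp at the gene (6 pairs). Elsewhere it was 6 bp and 5 bp for 279 pairs. Each altered form was compared with GL2, and each fusion with gl2-5. Starts lay further apart at the gene than elsewhere in every such comparison but that of gl2_dZip with GL2. Ends did so too, except for that comparison and for gl2_Amo with gl2-5 (3 bp against 5 bp). A peak that is split in 1 list enters as several pairs, whose inner edges add to the distances. At the gene this concerns stretches 4 and 7 for gl2_dSTART and GL2. The medians were not corrected for it, so they are not the spread of shared edges.

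By its median fold enrichment, the gene lay above the median of the whole list in all 6 lists. The median over the gene's peaks was 37.4 for gl2_dZip, 32.9 for gl2_dSTART, 106 for gl2_E375G R392M, 24.0 for gl2_Amo, 50.3 for GL2 and 74.3 for gl2-5. The medians of the whole nuclear lists were 12.8, 25.2, 22.1, 17.3, 22.2 and 33.9 in the same order. Above its list's median were 6 of 7 gl2_dZip peaks, 6 of 10 gl2_dSTART peaks, 7 of 8 gl2_E375G R392M peaks, 5 of 5 gl2_Amo peaks, 8 of 8 GL2 peaks and 5 of 6 gl2-5 peaks. By fold, the best peak of the gene ranked 6 of 1259 for gl2_dZip, 53 of 2539 for gl2_dSTART, 14 of 1280 for gl2_E375G R392M, 160 of 3533 for gl2_Amo, 45 of 1001 for GL2 and 11 of 681 for gl2-5. Because the lists differ in length, the ranks describe each list by itself. The share of the list's peaks with a lower fold than the best peak of the gene was 99.5% for gl2_dZip, 97.2% for gl2_dSTART, 98.9% for gl2_E375G R392M, 95.3% for gl2_Amo, 95.5% for GL2 and 98.2% for gl2-5.

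**Figure D4:**
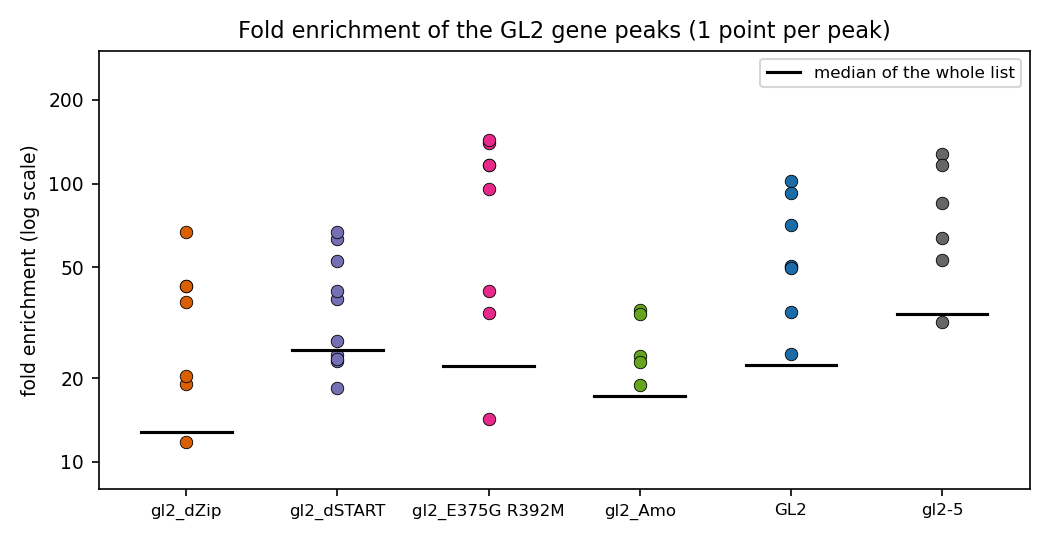
Fold enrichment of each GL2 gene peak on a log axis, with 1 point per peak and a black line at the median of the whole list. All 8 GL2 peaks and 5 of 6 gl2-5 peaks lie above their list's median, and 4 of 10 gl2_dSTART peaks lie below it.

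Likeness to GL2 was measured by the smallest number of peaks that a gene had in any of the 6 lists, with at least 3 required. PDF2 (AT4G04890, chromosome 4), which encodes a class IV HD-Zip factor needed for shoot epidermis identity, was the 1 other protein-coding gene that met this. It had 11 peaks for gl2_dZip, 13 for gl2_dSTART, 12 for gl2_E375G R392M, 14 for gl2_Amo, 13 for GL2 and 10 for gl2-5. Per 100000 retained tags it held 77.5, 233, 335, 103, 268 and 349 in that order, above the GL2 gene in each list. Because both sums come from the same list, the share of the GL2 gene in the tags of both genes needs no scaling. It still depends on what was called at each gene. It was 30.1% (27.7 to 32.6) for gl2_dZip, 12.4% (10.1 to 14.9) for gl2_dSTART, 25.0% (22.9 to 27.2) for gl2_E375G R392M, 21.5% (18.6 to 24.7) for gl2_Amo, 16.0% (13.9 to 18.2) for GL2 and 13.8% (11.6 to 16.2) for gl2-5. On this measure gl2_dZip was the highest, and gl2_dSTART, GL2 and gl2-5 were the lowest, with overlapping intervals between neighbours in that group. The order differs from that per retained tag, where gl2_dZip lay below GL2 and gl2-5, so its place depended on the measure.

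**Figure D5:**
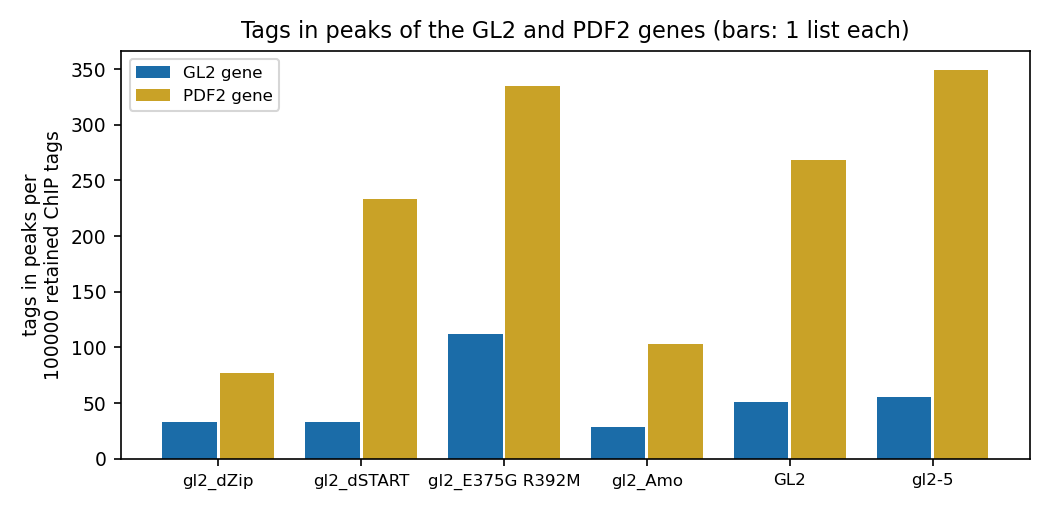
Tags in peaks of the GL2 gene and of the PDF2 gene per 100000 retained ChIP tags, with 1 pair of bars per list. The PDF2 bar is the higher in each list, and the pairs are closest in proportion for gl2_dZip.

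The other genes of the pathway were looked up in the same lists, in which 0.692% to 3.72% of all protein-coding genes had a peak, so that most members of a short list would be without one at that background. Of the 15 other class IV HD-Zip genes, PDF2 had peaks in all 6 lists, ATML1, the closest relative of PDF2, had 1 peak for GL2 with 11 tags and a fold of 49.6, and HDG2, a factor of trichome differentiation, had 1 peak for gl2_dSTART with 5 tags and a fold of 25.2. The remaining 12 had none in any list. Of 9 regulators upstream of GL2, MYB23 had 1 peak in each list. It held 20 tags for gl2_dZip, 20 for gl2_dSTART, 20 for gl2_E375G R392M, 35 for gl2_Amo, 20 for GL2 and 6 for gl2-5. Per 100000 retained tags, MYB23 held 1.60 for gl2_dZip, below the 2.64 for gl2-5, and 5.36 to 6.72 for the other fusions. The deposited FDR of this peak was above 5% for gl2_dZip and gl2-5, and at most 0.97% in the other lists. CPC, one of the small MYB proteins that restrain GL2 transcription, had 1 peak for gl2_dSTART with 6 tags and a fold of 50.4. The other 7, GL1, WER, GL3, EGL3, TTG1, TRY and ETC1, had no peak in any list.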

How the data were processed

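ChIP-seq libraries (15 ChIP, 6 input) from 6 genotypes were analysed as 1 peak list per genotype. Per the submitters' processing notes, reads were handled with bcl2fastq and Bowtie2 2.2.3 on the TAIR10 genome. Per the file headers, the authors called peaks with MACS 1.4.2 on 1 merged ChIP alignment against 1 input at a p cutoff of 1e-05, keeping 1 tag per position, and the fitted fragment size was 52 to 58 bp at a tag length of 51 bp, near the tag length itself. The deposited tag counts are whole tags per peak, the deposited score is the negative log10 of the peak's p-value multiplied by 10, the deposited fold enrichment is a ratio to local background, and the deposited FDR is a percent.

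The peaks of the GL2 gene were selected in Python 3.11.15 with pandas 2.3.3, positions were counted from 1, and intervals came from scipy 1.17.1. Interval arithmetic was tested on simulated data. Gene names and spans came from a RefSeq table on TAIR10.1, all 24 pathway identifiers were matched in it, and it was used without strand or exons, so the planned comparison by exon was made by stretch. Genes with a peak in every list or at least 3 peaks in any list were to be named with values, and ATML1, HDG2 and CPC were named after their values were seen. The gene, the lists of genes and the comparisons were chosen with earlier results of these data known.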

Additional observations from a re-analysis of the deposited data

How the results depend on the processing

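Of 54 alternatives, 37 left the value within 1.5 times of the reported one, or within its counting interval for tag ratios. Some of the 37 could not have moved, so the tally overstates how stable the values are. Every peak lies inside the window and inside a stretch, so sharing out its tags by length could change nothing. With an FDR of 5% or less, 0 gl2_dZip peaks (0 bp) and 2 gl2-5 peaks (907 bp) remained. With a score of 100 or more, gl2_dSTART kept 3 peaks (825 bp) and 784 bp were covered in all lists. Joining peaks within 100 bp gave 4 peaks for gl2_dSTART, 4 for gl2_dZip, 2 for gl2_E375G R392M and 3 for GL2, so counts of peaks depend on small gaps. The total was also taken before repeated positions were removed, while the tags in peaks stayed those counted after that filter. Ratios to gl2-5 then became 0.294 for gl2_dZip, 0.156 for gl2_dSTART, 0.0829 for gl2_Amo and 0.351 for GL2. That for gl2_E375G R392M turned round to 0.543, since the filter kept 4.66% of the gl2-5 tags and 1.27% of the gl2_E375G R392M tags. The START deletion covered 100% of the stretches by presence and 65.0% of their bases. As checks chosen after seeing the data, leaving out the gl2_dZip list or the gl2-5 list gave 1286 bp or 1317 bp covered in all remaining lists. The first of these could not differ from the reported value, since no base was lacked by gl2_dZip alone. No paired analysis was possible because replicates were merged before peak calling, and for the same reason no replicate could be left out. Peaks of 5 to 7 tags lie at the limit of calling.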
